A study of Rattus norvegicus with 9 samples.

Results

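The complement system is measured here by 9 genes, listed by name: the C1q chains C1qa, C1qb and C1qc, the protease C1s, the inhibitors Serping1 and Cd55, and the convertase components C2, C3 and Cfb. Of these, 7 had a probe set of their own, 8 probe sets in all, against 14217 genes with such a probe set on the array. C2 and Cfb, which lie next to each other in the rat genome, had none, because each of their 4 probe sets is annotated to both genes. These 4 are described below as shared probe sets and count for neither gene.

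Basal expression was measured in whole bone of male CD rats of about 110 g, with 4 arrays from the skull vault (calvaria) and 5 from a limb bone (ulna). The animals had no treatment, their age was not stated, and the labels give the skeletal site as the difference between the groups. By the methods of the study, RNA of skull and limb bones came from 5 groups of 4 rats, so that an extract was a pool and not 1 animal. Soft tissue, sutures and epiphyses were removed from the bones before extraction. By this wording a group may have given both a skull and a limb extract. Whether extracts with the same number came from the same rats was not stated, and the main comparison was not paired. The comparison addresses whether bone genes are used differently at sites that develop and are loaded differently. A tissue field of ulna 1, 2, 3 and 4 names the calvaria, whereas the title and source name of these arrays name the ulna, and arrays were grouped by the titles.

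Array medians lay between 33.01 and 36.59 signal units before scaling. The 9 measured osteoblast markers were bright at both sites, with summed signals of 33340 to 43395 in the skull and 24556 to 33454 in the limb. The 10 skeletal muscle markers summed to 64.9 to 116 in the skull and to 7805 to 19177 in the limb, and all 10 were lower in the skull. In whole tissue, fewer cells of a type and less RNA per cell cannot be told apart. The highest signal of control probe sets whose target is absent from rat RNA was 8.34, and signals near that level are not resolved.

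Complement is a set of plasma and membrane proteins that tag particles and cells for removal. The classical pathway starts when C1q, built from 3 different chains, binds its target and activates the attached proteases C1r and C1s, which cleave C4 and C2 to form a C3 convertase. The alternative pathway builds its convertase from C3b and factor B (Cfb). Serping1 (the C1 inhibitor) blocks C1r and C1s, and Cd55 (decay-accelerating factor) dissociates the convertases on the surface of host cells. The liver makes most plasma complement, whereas C1q comes mainly from macrophages and dendritic cells, and fibroblasts and other stromal cells make several components locally.

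A gene was called where limma gave a Benjamini-Hochberg adjusted p below 0.05 over all probe sets and a difference of at least 2-fold. Of the 7 measured members, Serping1 was called higher in the skull, Cd55 was called lower, and 5 were not called. Over all 14217 genes 7.79% were called, 3.47% higher and 4.31% lower in the skull, and of the probe sets 6.24%. At an adjusted p below 0.05 with no limit on size, 4 of the 7 differed (Serping1 and C1s higher, C3 and Cd55 lower), against 29.6% of all genes. For 3 of the 7 (Serping1, C3 and Cd55) the signals of the sites did not overlap, against 28.9% of all genes. The median log2 difference, skull minus limb, was -0.01 over the 7 members and -0.02 over all genes.

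**Figure D1:**
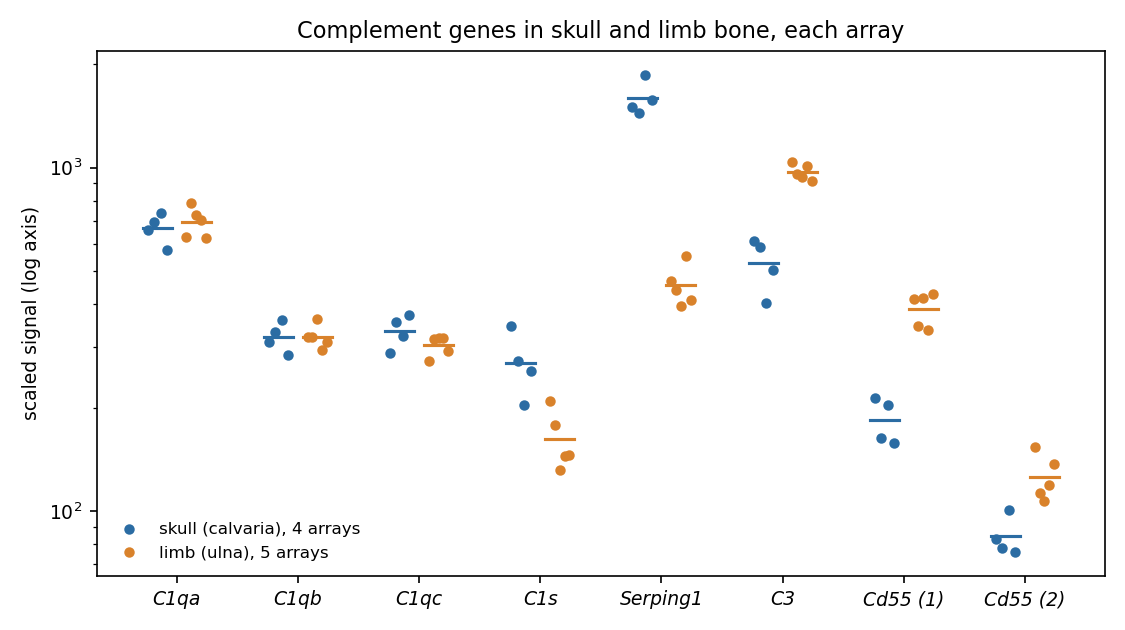
Scaled signal (log axis) of the 8 probe sets of the 7 measured complement genes on each array, skull (calvaria, 4 arrays) in blue and limb (ulna, 5 arrays) in orange, with a bar at the mean of each site. Signals of Serping1 lay at 1438 to 1865 in the skull and 396 to 553 in the limb, whereas both sites overlapped for the 3 C1q chains.

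The 3 chains of C1q, the recognition molecule of the classical pathway, had similar signals at both sites. The genes follow each other directly on chromosome 5 of the rat, in the order C1qb, C1qc, C1qa. Promoters of C1qa and C1qb, the chains with a promoter in the RefSeq table of the GRCr8 build, are shown because these neighbours did not differ between the sites. Each line gives the 250 bases before the start, 5′ to 3′ on the strand of the gene (the minus strand for both), from chr5:154419934-154420183 for C1qa and chr5:154407828-154408077 for C1qb. Capitals mark matches to any of 7 motifs searched on both strands. The motif of PU.1, a factor that directs the macrophage program, was searched by its core letters GAGGAA. The interferon-stimulated response element, bound by interferon regulatory factors, was searched as GAAANNGAA, and the element of the STAT proteins, which act below cytokine receptors, as TTCNNNGAA. The element of NF-kappaB, a mediator of inflammatory signals, was searched as GGANNTTCC, and that of the C/EBP factors of the acute phase response as TTGCNNAA. The element of AP-1, which also responds to growth factors and stress, was searched as TGANTCA, and the TATA box, which places the start of transcription in some promoters, as TATAAA.
C1qa: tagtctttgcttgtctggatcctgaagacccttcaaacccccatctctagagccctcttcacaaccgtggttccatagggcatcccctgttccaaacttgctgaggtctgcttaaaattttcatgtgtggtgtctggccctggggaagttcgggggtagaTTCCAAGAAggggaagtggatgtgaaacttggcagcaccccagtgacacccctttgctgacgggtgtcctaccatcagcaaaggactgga
C1qb: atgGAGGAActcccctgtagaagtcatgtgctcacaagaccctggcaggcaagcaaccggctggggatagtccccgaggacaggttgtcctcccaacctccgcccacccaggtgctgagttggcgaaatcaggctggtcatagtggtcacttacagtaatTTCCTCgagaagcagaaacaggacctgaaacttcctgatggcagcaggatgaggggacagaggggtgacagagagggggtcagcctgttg
C1qa held 1 STAT match, which starts 90 bases before the gene, and this motif was in 7.67% of 33469 promoters of the same length. C1qb held the PU.1 core at 247 bases before the gene and, on the opposite strand, at 90 bases, and this motif was in 23.3% of promoters. No match overlapped another one, and a match describes letters only.

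C1qa had scaled signals of 659, 696, 737 and 575 on calvaria 1 to 4 and of 627, 791, 727, 702 and 622 on ulna 1 to 5. The sites overlapped, and the log2 difference was -0.06 ± 0.10 (SE, n = 4 and 5), with a 95% interval from -0.27 to 0.16 (adjusted p = 0.743). C1qb had signals of 310, 332, 359 and 285 in the skull and of 321, 322, 362, 295 and 311 in the limb. Its interval was the narrowest of the 3 chains, from -0.19 to 0.18 around a difference of -0.01 ± 0.08 (adjusted p = 0.982). C1qc had signals of 289, 356, 324 and 372 in the skull and of 273, 316, 320, 320 and 292 in the limb, a difference of 0.14 ± 0.08, with an interval from -0.05 to 0.33 (adjusted p = 0.314). None of the intervals reached a 2-fold difference, nor did any end lie beyond 0.33. Within a site the chains varied by 9.87% to 10.9% in the skull and by 6.84% to 10.3% in the limb (coefficient of variation). Calvaria 3 had the highest skull signal and calvaria 4 the lowest for both C1qa and C1qb, but calvaria 4 had the highest for C1qc. The direction of C1qa and C1qb, at differences this small, turned with the scaling, to 0.02 and 0.07 with quantile normalization.

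C1q is largely a product of macrophages, so tissue macrophage markers are given beside it. Of 12 measured, Csf1r (the receptor for macrophage colony-stimulating factor, log2 difference 1.53 ± 0.12, adjusted p = 5.58e-05) and Cd68 (a lysosomal glycoprotein, 1.38 ± 0.14, adjusted p = 0.000169) were called higher in the skull, and none was called lower. Osteoclasts also express both of these. Without the limit on size 4 of the 12 were higher, also Cd14 (a co-receptor for lipopolysaccharide, 0.96 ± 0.16, adjusted p = 0.00226) and the mannose receptor Mrc1 (0.52 ± 0.09, adjusted p = 0.00302), and 1 was lower, the Fc receptor Fcgr3a (-0.58 ± 0.15, adjusted p = 0.0224). The other 7 did not pass the test, with values from -0.29 for Aif1 to 0.41 for Folr2. The 12 markers summed to 3459 to 4579 in the skull and 2174 to 2456 in the limb, and each of them exceeded the level of absent controls on at least 1 array. Over skull arrays their mean log2 signal was 7.38 ± 0.14 (SD, n = 4), and over limb arrays 7.04 ± 0.08 (n = 5). Without Csf1r and Cd68 the means of the other 10 were 6.84 ± 0.13 and 6.73 ± 0.08, a difference of 0.11. The 3 C1q chains had a mean of 8.69 ± 0.09 in the skull, against 8.67 ± 0.09 in the limb, a difference of 0.02. The macrophage markers thus did not move together, and the difference of C1q lay within their range. The share of macrophages in each sample was not tested.

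**Figure D2:**
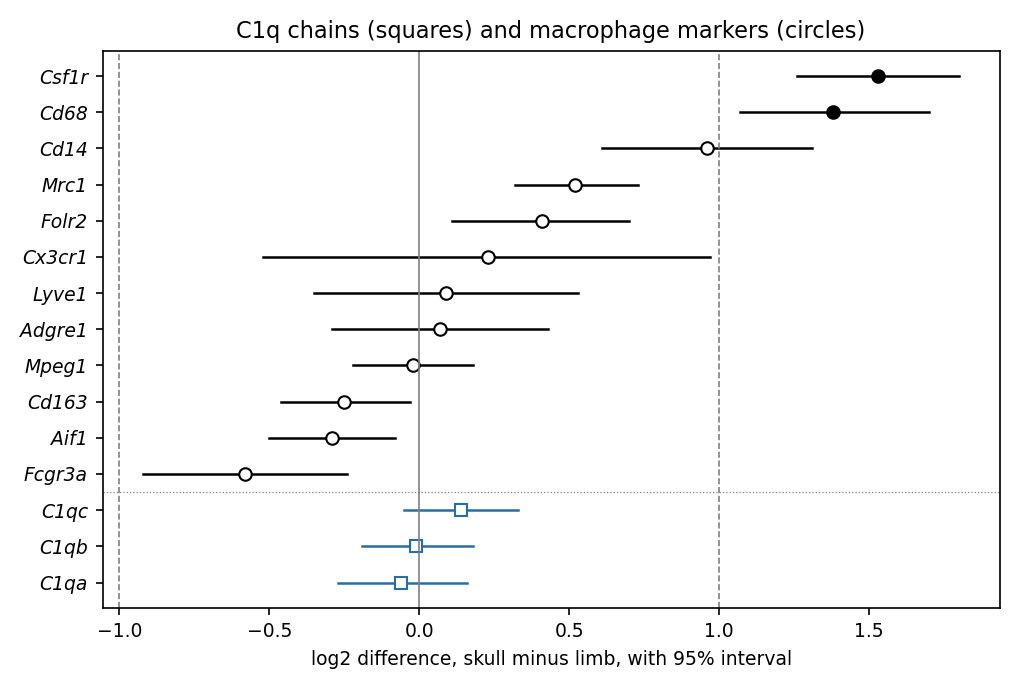
Log2 difference, skull minus limb, with its 95% interval for the 3 C1q chains (blue squares) and the 12 measured tissue macrophage markers (black circles), filled where called. Dashed lines mark 2-fold. The C1q chains lay between -0.06 and 0.14, whereas the markers ranged from -0.58 for Fcgr3a to 1.53 for Csf1r.

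The proteases that C1q activates were somewhat higher in the skull. C1s, which cleaves C4 and C2, had signals of 346, 273, 204 and 255 in the skull and of 209, 178, 132, 145 and 146 in the limb. The sites overlapped only because calvaria 3 (204) lay below ulna 1 (209). The log2 difference was 0.73 ± 0.17, with an interval from 0.33 to 1.12 (adjusted p = 0.0162), and the ratio of mean signals, skull over limb (S:L ratio), was 1.66, below the 2-fold limit. C1s varied most among the members, with a coefficient of variation of 21.7% in the skull and 19.3% in the limb. C1r, which activates C1s and is not among the 9 genes, had signals of 270, 383, 472 and 270 in the skull and of 166, 159, 184, 165 and 183 in the limb. These did not overlap, and the difference of 0.99 ± 0.16 (adjusted p = 0.00258) lay just under 2-fold. Other settings put C1r on either side of that limit, at 0.83 to 1.10, and called it in 8 of 19.

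Serping1, the inhibitor of C1r and C1s, had the largest difference of the members. Its signals were 1505, 1438, 1865 and 1575 in the skull and 469, 441, 396, 553 and 412 in the limb. Every skull array exceeded every limb array, the lowest skull signal (1438) being well above the highest limb signal (553). The means were 1596 ± 188 (SD, n = 4) and 454 ± 61.9 (n = 5), an S:L ratio of 3.51, and the log2 difference was 1.82 ± 0.11, with an interval from 1.56 to 2.07 (adjusted p = 2.58e-05). Its mean log2 signal ranked at the 97.2 percentile of all probe sets. Over the 19 alternative settings the difference stayed between 1.74 and 1.90, and all 19 called it.

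The shared probe sets of C2 and Cfb were also higher in the skull. C2 is the protease subunit of the classical C3 convertase and Cfb its counterpart in the alternative one, and the signals cannot be divided between them. The first shared probe set had signals of 288, 296, 349 and 314 in the skull and of 100, 112, 97.3, 118 and 104 in the limb, a log2 difference of 1.55 ± 0.08 (adjusted p = 1.93e-05). The second (290, 308, 323 and 312 against 105, 135, 96.2, 119 and 133) had a difference of 1.40 ± 0.11 (adjusted p = 4.97e-05). The fourth (283, 270, 355 and 340 against 94.3, 120, 98.9, 113 and 121) had one of 1.51 ± 0.11 (adjusted p = 4.81e-05). These 3 were called, with S:L ratios of 2.62 to 2.93 and no overlap between the sites. The third was dim, with signals of 29.7, 18.8, 14.9 and 32.6 in the skull and of 13.4, 13.2, 10.5, 13.7 and 5.13 in the limb. It did not pass the test (1.11 ± 0.38, adjusted p = 0.0686), although its sites did not overlap either. Each of the 3 called probe sets was called in all 19 alternative settings, and the third in 1 of them.

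C3, the protein on which all activation routes converge, was lower in the skull but not by 2-fold. Promoters of C3 and Cd55, the members with lower signals in the skull, are shown for the same 250 bases, from chr9:2201340-2201589 for C3 and chr13:44438102-44438351 for Cd55 (GRCr8, minus strand for both), with the same motifs in capitals. The start used for Cd55 lies inside the annotated span of the gene.
C3: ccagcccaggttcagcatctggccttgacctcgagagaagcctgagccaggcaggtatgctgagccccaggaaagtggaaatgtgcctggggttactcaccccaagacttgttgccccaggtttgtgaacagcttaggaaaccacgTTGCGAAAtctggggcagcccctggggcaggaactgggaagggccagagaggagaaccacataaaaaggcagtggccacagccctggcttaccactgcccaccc
Cd55: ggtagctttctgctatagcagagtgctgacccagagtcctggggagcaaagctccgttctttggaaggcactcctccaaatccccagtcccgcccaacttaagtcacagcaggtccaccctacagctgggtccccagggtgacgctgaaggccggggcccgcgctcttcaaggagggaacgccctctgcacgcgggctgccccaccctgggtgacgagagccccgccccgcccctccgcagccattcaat
C3 held 1 C/EBP match, which starts 104 bases before the gene, and this motif was in 9.22% of promoters. None of the 7 motifs was found in these bases of Cd55. The interferon-stimulated response element (8.12% of all promoters), NF-kappaB (3.36%), AP-1 (6.34%) and TATA box (12.9%) letters were in none of the 4 member promoters. GC content was 64.4% for Cd55, 58.8% for C3, 56.8% for C1qb and 52.4% for C1qa, against a median of 51.2% over all promoters.

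C3 had signals of 610, 589, 403 and 504 in the skull and of 1040, 959, 941, 1013 and 916 in the limb. The highest skull signal (610) was below the lowest limb signal (916), and calvaria 3 was the lowest of all. The means were 527 ± 94.5 and 974 ± 51.3, with an S:L ratio of 0.541. The log2 difference was -0.90 ± 0.12, with an interval from -1.17 to -0.64 (adjusted p = 0.000646). Limb arrays were close to each other, with a coefficient of variation of 5.27% against 18% in the skull. With other settings the difference was -0.98 to -0.78, and none took C3 past 2-fold.

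Cd55, which protects host cells from their own convertases, was lower in the skull on both of its probe sets, by an amount that differed between them. The brighter one had signals of 213, 163, 204 and 158 in the skull and of 414, 345, 417, 336 and 428 in the limb. All skull signals lay below all limb signals, and the log2 difference was -1.08 ± 0.12, with an interval from -1.35 to -0.81 (adjusted p = 0.000269), an S:L ratio of 0.475. The dimmer one had signals of 83.2, 78.2, 101 and 76.1 in the skull and of 154, 113, 107, 119 and 137 in the limb. It did not overlap either, although calvaria 3 (101) came close to ulna 3 (107), and its difference of -0.57 ± 0.13 (adjusted p = 0.0122) was under 2-fold. The mean of both probe sets gave -0.82 ± 0.11 (adjusted p = 0.000667), which ended the call of Cd55. Its probe sets can report different transcripts of the gene, which was not tested.

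**Figure D3:**
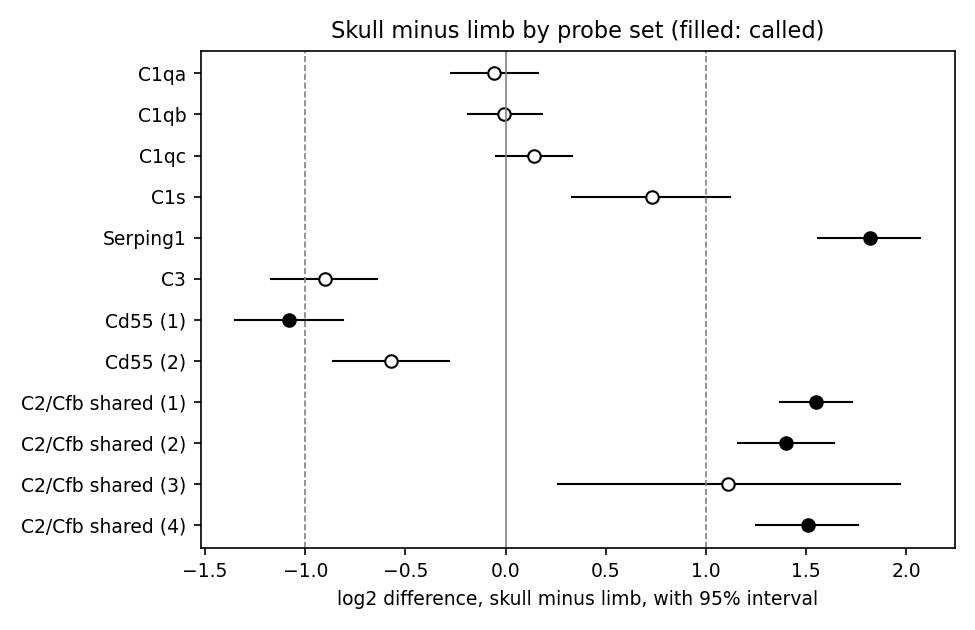
Log2 difference, skull minus limb, with its 95% interval for each probe set of the 7 measured members and for the 4 probe sets shared by C2 and Cfb, filled where called. Dashed lines mark 2-fold. Serping1 (1.82) and 3 of the shared probe sets (1.40 to 1.55) lay to the right of the 2-fold line, and the brighter Cd55 probe set (-1.08) to the left.

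The rest of the pathway was read from a list of 47 further complement genes, of which 37 were measured. Colec12 and Vtn were higher in the skull and C6 and Itgam lower, so that 4 of 37 were called. Without the limit on size 3 were higher and 10 lower. Over all genes 7.79% were called, and 29.6% differed without the limit on size. The median difference was -0.19, against -0.02 over all genes.

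Among 9 genes of classical and lectin activation, the scavenger collectin Colec12, which can start complement at cell surfaces, was the only one called. Its signals were 1257, 1278, 1673 and 1041 in the skull and 490, 480, 388, 467 and 369 in the limb. The sites lay far apart, with a log2 difference of 1.57 ± 0.14 (adjusted p = 0.000106), and all 19 settings called it. The ficolins, soluble pattern receptors of myeloid cells and macrophages, went the other way without reaching 2-fold. Fcna fell from 737 ± 29.5 in the limb to 473 ± 28.6 in the skull (-0.64 ± 0.05, adjusted p = 8.33e-05), and Fcnb from 1828 ± 128 to 1277 ± 149 (-0.52 ± 0.09, adjusted p = 0.00311). The lectin pathway proteases Masp1 (0.33 ± 0.24, adjusted p = 0.411) and Masp2 (-0.19 ± 0.15, adjusted p = 0.438) did not pass the test. Of the alternative pathway, the protease adipsin (Cfd) had signals of 1241 ± 162 in the skull and 1283 ± 94.4 in the limb (-0.05 ± 0.10, adjusted p = 0.763), and properdin (Cfp), which stabilises the convertase, was lower in the skull (-0.43 ± 0.09, adjusted p = 0.00969).

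Terminal components assemble the membrane attack complex, and most of those measured had low signals. Of 6, C6 was called, with signals of 11.9, 19.4, 16.3 and 17.1 in the skull and of 40.9, 24.1, 34.5, 38.3 and 42.2 in the limb (-1.15 ± 0.23, adjusted p = 0.00622). Its sites did not overlap, but log2(signal + 16) and a fit with the replicate number as a block did not call it. C5 and C8a stayed below the level of absent controls on all 9 arrays, whereas C8g, at 40.5 to 60.4, was above it on all 9 and did not pass the test (-0.20 ± 0.14, adjusted p = 0.385). Of 7 soluble inhibitors only vitronectin (Vtn), which binds the terminal complex, was called (1.71 ± 0.51, adjusted p = 0.0434). Its limb mean of 6.74 was below the level of absent controls, ulna 1 (14.3) overlapped the skull range of 13.9 to 22.7, and 12 of 19 settings did not call it. The size of this difference is therefore not resolved. Clusterin (Clu), a further inhibitor of that complex, was lower in the skull by less than 2-fold (-0.45 ± 0.11, adjusted p = 0.0157).

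Membrane inhibitors other than Cd55 were not called. Cd59b, which blocks the terminal complex on host cells, was lower in the skull (525 ± 65 against 708 ± 87.3, -0.43 ± 0.11, adjusted p = 0.0251). Cr1l (Crry), the rodent regulator of C3 convertases, had signals of 599 ± 58.9 and 537 ± 30 (0.15 ± 0.07, adjusted p = 0.190).

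Of 9 receptors, 4 were lower in the skull without the limit on size and none was higher. By the same rule 2365 of all 14217 genes were lower and 1838 higher. Itgam, the alpha chain of complement receptor 3, was called, with signals of 39.2, 54.6, 41.5 and 26.3 in the skull and of 99.7, 101, 122, 82.2 and 87 in the limb (-1.32 ± 0.21, adjusted p = 0.00178). All skull signals were below all limb signals, and all 19 settings called it. Its partner chain Itgb2 (-0.69 ± 0.10, adjusted p = 0.00141), the C5a receptor C5ar1 (-0.92 ± 0.12, adjusted p = 0.0007) and the B cell receptor for C3d, Cr2 (-0.90 ± 0.22, adjusted p = 0.0193), were the other ones. Calreticulin (Calr, 0.18 ± 0.07, adjusted p = 0.0903) and C1qbp (0.14 ± 0.08, adjusted p = 0.305), both bright and both known to bind C1q, did not pass the test.

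**Figure D4:**
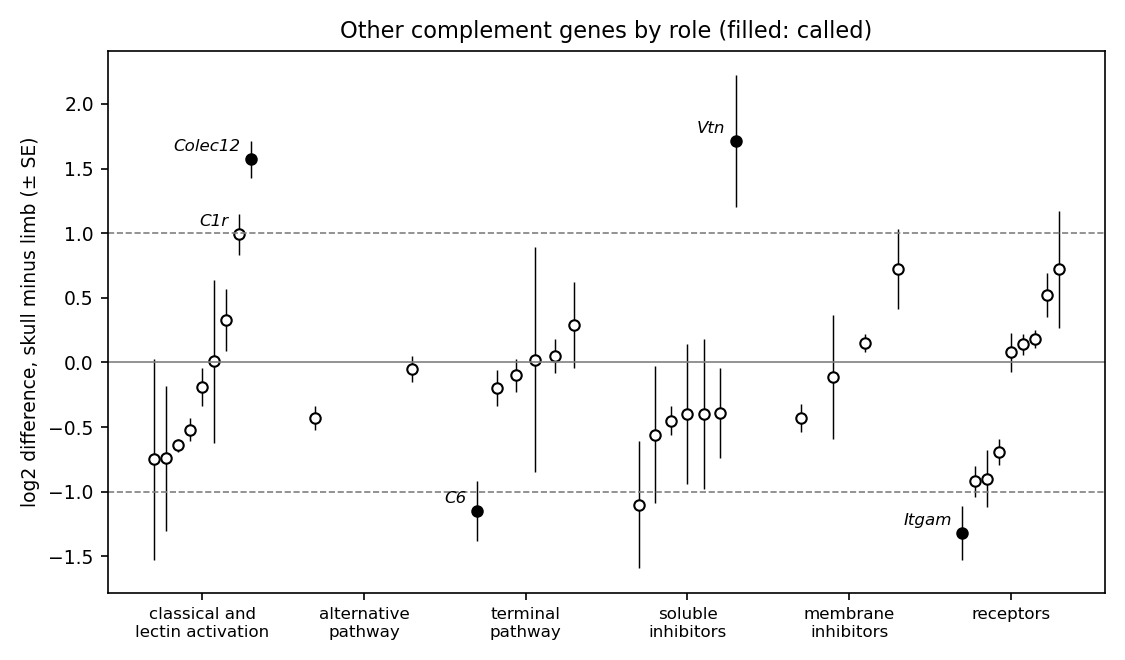
Log2 difference, skull minus limb, with its SE for 37 further complement genes, grouped by role, filled where called. Dashed lines mark 2-fold. The called genes are Colec12 (1.57), Vtn (1.71), C6 (-1.15) and Itgam (-1.32), and C1r (0.99) lay just under the line.

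Markers of several cell types that carry or make these proteins differed between the sites in the same samples. Fibroblast and connective tissue markers, given beside Serping1, C1r and C1s, summed to 15981 to 16937 in the skull and 11642 to 15157 in the limb. Of 14 measured, 6 were called higher and none lower, among them Fap (2.75 ± 0.17), Pdgfra (1.15 ± 0.13), Dpt (1.80 ± 0.41) and Clec3b (2.49 ± 0.59). Without the limit on size 8 were higher and 1 lower, the matrix protein periostin (Postn, -0.57 ± 0.16, adjusted p = 0.0340). Osteoclast markers summed to 10472 to 15244 and 4629 to 5527, with 6 of 8 called higher in the skull (Mmp9, Acp5, Ctsk and Clcn7 among them). Of 9 osteoblast markers Pth1r and Ibsp were called higher. Without the limit on size 7 of the 8 osteoclast and 5 of the 9 osteoblast markers were higher and none was lower. Neutrophil markers, given beside Itgam, Itgb2 and C5ar1, summed to 8851 to 10983 in the skull and 14323 to 18865 in the limb. Of 6 measured, Camp, Lcn2, Mmp8 and Cxcr2 were called lower in the skull and none higher, and without the limit on size all 6 were lower. Erythroid markers, given beside Cd55 because red cells carry that protein, summed to 10506 to 11094 and 14210 to 18484, and 7 of 8 were lower, with Klf1 (-1.84 ± 0.11), Gata1, Epb42 and Rhd first. Adipocyte markers, given beside C3 and Cfd, summed to 933 to 1377 and 1210 to 1734, with 3 of 8 called lower in the skull (Fabp4, Plin1 and Adipoq). Lipoprotein lipase (Lpl) was higher by less than 2-fold (0.42 ± 0.11, adjusted p = 0.0254). The part of each of these cell types in the differences of complement genes was not tested.

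Markers of hepatocytes, the main source of plasma complement, were dim at both sites. The 9 measured summed to 73.5 to 87.7 in the skull and 65.9 to 144 in the limb. Albumin (Alb) was at 1.88 to 7.46 in the skull and 1.91 to 13.4 in the limb, around the level of absent controls. Ahsg was called lower in the skull (-1.30 ± 0.38, adjusted p = 0.0389), but its means of 4.13 and 9.79 were at that level too.

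Genes that respond to the cytokines known to induce C2, C3, Cfb and Serping1 were read as separate lists. Of 12 interferon response genes none was called, and without the limit on size 3 were lower in the skull and none higher (median -0.16). Of 14 genes of the NF-kappaB and acute phase response, Icam1 was called higher (1.08 ± 0.11, adjusted p = 0.000201), and without the limit 5 were higher and 1 lower (median 0.51). The other higher ones were Socs3 (0.92 ± 0.19, adjusted p = 0.00726), Ccl2 (0.79 ± 0.25, adjusted p = 0.049), Nfkbia (0.54 ± 0.09, adjusted p = 0.00324) and Stat3 (0.50 ± 0.09, adjusted p = 0.00386). The lower one was Il1b (-0.96 ± 0.14, adjusted p = 0.00136). Il6 had means of 10.3 in the skull and 3.80 in the limb, around the level of absent controls. Names in this paragraph were chosen after their values were seen.

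Other genes whose pattern over the 9 arrays was closest to that of the members were found by the root mean square distance between log2 signals, each gene centred on its own mean, over 9478 to 9480 genes at or above the median signal. This centring keeps the difference between the sites, so genes with a site difference of similar size lie close by construction. Closest to Serping1 were Acp5 (the osteoclast phosphatase, distance 0.0960, log2 difference 1.71 ± 0.13) and Srpx2 (0.109, 1.88 ± 0.12). Closest to Cd55 were Daam1 (0.0861, -1.05 ± 0.11) and Hagh (0.0903, -1.02 ± 0.10). Closest to the mean of the C1q chains were Pcyt1a (0.0466, 0.02 ± 0.06) and Fv1 (0.0530, 0.03 ± 0.08), neither of which passed the test (adjusted p = 0.844 and 0.826).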

How the data were processed

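The deposited values are intensities. The authors computed 1 MAS5 signal per probe set and array from Affymetrix whole-genome rat GeneChips, on a linear scale with a common trimmed mean per array. The MAS5 version was not given in the sources used here. The authors then normalised per chip and per gene, filtered genes by a rule that was not given, and called genes by analysis of variance with Benjamini-Hochberg adjustment and a 2-fold limit.

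Of 31099 probe sets, 57 controls were left out and 31042 tested. The platform annotation gave 1 gene symbol for 20826, several for 436 and none for 9780, and 20758 were matched to the RefSeq gene table of GRCr8, which was used for names and neighbours. Promoter sequences are from RefSeq (GRCr8), with an entry for 4 of the 9 members. Each array was scaled to a common median. Signals below 2.511, the 10th percentile over all arrays, were set to it before log2 was taken. Skull was compared with limb by limma 3.58.1 (R 4.3.3) with an intensity trend, and the script was tested on simulated data. Replicates are pools of rats by the methods, and the number of arrays limits the precision. A gene with several probe sets was represented by the brightest one (mean log2 signal).

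The members and the 15 gene lists (179 of 220 entries measured) were chosen with earlier results of these data known. Genes named are every member, called genes of the pathway list and its 6 brightest others, up to 4 called markers per cell type or else its 2 brightest, the 2 closest patterns per called member and for C1q, and those said to be named after their values were seen, to which C1r, Masp1, Masp2, C5, C8a, C8g, Clu, Cfp, Cr1l, Itgb2, C5ar1, Cr2, Fcgr3a, Cd14, Mrc1, Aif1, Folr2, Lpl, Postn and Alb also belong. Alternatives were the scaling, the floor, a pseudocount, a filter on dim probe sets, the variance model, the replicate block, the mean of probe sets and leaving out each array.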

Additional observations from a re-analysis of the deposited data

How the results depend on the processing

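The calls of Serping1 and Cd55 held under all 19 alternatives, except that the mean of its probe sets ended the call of Cd55 (-0.82) and left 1 member called. C1s, C3 and C1qc kept their direction and stayed uncalled in all 19. The direction of C1qa, never called, turned with quantile normalization (0.02) and without calvaria 4 (0.01), and without any 1 array it was -0.11 (without calvaria 3) to 0.01. That of C1qb, also never called, turned with array weights (0.01), with signals as deposited (0.05), with quantile normalization (0.07), and without calvaria 1 (0.01), calvaria 4 (0.05) or ulna 3 (0.04), within -0.06 to 0.05 without any 1 array. With log2(signal + 16), which compresses dim genes, 2 pathway genes were called in place of 4 and 1032 probe sets in place of 1938. Without any 1 array, 3 to 6 pathway genes, 2 members and 1716 to 2045 probe sets were called. The 6 came without calvaria 1, where C1r (1.10), Cr2 (-1.09) and C5ar1 (-1.01) were added and Vtn was lost.

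Over all probe sets, deviations of arrays with the same replicate number had correlations of -0.00942 to 0.0420 (4 pairs). Arrays of unlike number had -0.0406 to 0.0219. The main fit did not read the numbers as pairs. Some members varied together by number. With the replicate block the SE was 0.06 for C1s and 0.05 for Cd55, against 0.19 and 0.13 without ulna 5 and without the block. For Serping1 it was 0.13 against 0.12. With the replicate block, which leaves out ulna 5, 2 members, 3 pathway genes and 1571 probe sets were called. Signals near those of absent controls (up to 8.34) limit what can be said of C5, C8a, Vtn and the hepatocyte markers. The 3' to 5' log2 ratio of beta-actin was 0.75 to 1.04 in the skull and 0.57 to 0.86 in the limb, and that of Gapdh 0.28 to 0.59 and 0.21 to 0.37. The part of RNA quality in the differences was not tested.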

Other observations

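Markers of other immune and vascular cells also differed between the sites. Mast cell markers summed to 708 to 920 in the skull and 386 to 469 in the limb, and 4 of 9 were higher in the skull (Cpa3, 2.02 ± 0.16, Cma1, Tpsb2 and Tpsab1) at 2-fold and none was lower at that size, whereas 1 was lower at an adjusted p below 0.05 without the limit on size. Of 10 dendritic cell and MHC class II genes, RT1-Da (1.01 ± 0.14) and RT1-Bb (1.44 ± 0.25) were called higher and the progenitor receptor Flt3 lower (-1.78 ± 0.33). Without the limit on size 6 of the 10 were higher and only Flt3 was lower. The mean of Flt3 in the skull, 8.26, was near that of absent control probe sets, which leaves the size of that difference unresolved. Of 8 endothelial genes, endomucin (Emcn, 1.02 ± 0.08) was called higher, whereas von Willebrand factor (Vwf, -1.27 ± 0.11) was called lower. Without the limit on size 7 of the 8 were higher and only Vwf was lower (median 0.52). None of 5 B cell genes was called, with -0.32 as their median. The bright B cell genes Fcrla and Blnk had means of 876 and 808 in the skull and of 1023 and 972 in the limb. Neither passed the test (adjusted p = 0.0783 and 0.104). Among the 5, 2 genes, Cr2 being 1 of them, were lower at an adjusted p below 0.05 without the limit on size. All 10 skeletal muscle markers were lower in the skull, Tnnc2, Myl1, Acta1 and Ryr1 with the smallest adjusted p.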
